A study of Mus musculus with 2 samples.

Results

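The genes described here encode the ligands, receptors and modulators of BMP (bone morphogenetic protein) and TGF-beta signalling, chosen as those whose symbol belongs to the Bmp, Gdf, Inhb, Tgfb, Tgfbr, Acvr, Bmpr, Smad, Ltbp, Fstl or Grem families, together with Nog, Chrd, Chrdl1, Bambi, Bmper, Fst, Nbl1, Eng, Smurf1 and Smurf2. They came to 62 of the 18193 genes named on the array and were read by 126 probe sets. Bmp2k, a kinase named after its induction by BMP2, belongs to none of these families and was left out. Primary osteoblast cultures were grown from cells of newborn mouse calvariae (the bones of the skull roof) from which cells bearing CD11b, a myeloid surface protein, had been removed. Both cultures received ascorbic acid and β-glycerophosphate and no other treatment, 1 for 5 days and 1 for 12 days. Strain, sex and the number of animals pooled are not given in the labels. RNA of each culture was hybridised to 1 Affymetrix array, so no value below has a replicate error or a test, and every difference is one between these 2 arrays.

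BMPs, growth and differentiation factors (GDFs), TGF-betas and activins are dimeric secreted ligands of one superfamily. They bring together type I and type II serine/threonine kinase receptors, which phosphorylate Smad proteins that enter the nucleus with the shared partner Smad4. Secreted binding proteins trap the ligands outside the cell, latent TGF-beta binding proteins hold TGF-beta in the matrix, and inhibitory Smads and ubiquitin ligases damp the signal inside. In bone, BMPs drive the commitment and maturation of osteoblasts, and TGF-beta is stored in the matrix that these cells lay down.

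Values are MAS5 signals, in arbitrary units on a linear scale that was scaled to the same trimmed mean on both arrays. A gene was counted as measured where its brightest probe set reached the floor, which is the 60th percentile of its array (46.6 at day 5, 44.8 at day 12), on at least 1 array. For the ratio, any value under the floor was replaced by the floor, so a fold from below the floor is a bound, written "at least". Of the 62 genes, 43 were measured and 41 of these lay above the floor on both arrays. The other two, Bmp8a and Bmp7, were measured through 1 day only, Bmp8a through day 12 and Bmp7 through day 5. The 19 genes under the floor on both arrays had signals between 1.52 and 39.6 at day 5 and between 4.21 and 41.0 at day 12.

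The labelled cell type was checked against its markers. All 6 osteoblast genes examined were above the floor on both arrays. Among them were Col1a1, with signals of 6093 and 9455 at day 5 and day 12, Alpl, with 684 and 3355, and Ibsp, with 1098 and 10334. Runx2, Bglap, Bglap2 and Spp1 were also on the list but had no probe set assigned to them alone. The same held for Plin1 and Cfd among adipocyte markers and Ccnb1 among cell cycle genes. Other cell types were represented as well. Of 12 chondrocyte markers all were measured, and 8 were at least 2-fold lower at day 12, their summed signal going from 38233 to 16999. Of 11 myeloid markers 10 were measured and 8 were at least 2-fold higher, with a summed signal of 4468 at day 5 and 10755 at day 12, although Itgam, which encodes CD11b itself, stayed under the floor with signals of 14.6 and 35.4. None of 6 endothelial markers reached the floor. Of 4 adipocyte markers 1, Lpl, passed 2-fold upwards and none downwards. The others were lower at day 12, with log2 ratios of -0.83 for Fabp4, -0.75 for Adipoq (a bound) and -0.54 for Pparg. Of 5 smooth muscle markers 4 were measured and 1, Cnn1, was at least 2-fold lower. The 4 cell cycle genes had log2 ratios between -0.23 and 0.02. In RNA from a mixed culture, a change in the number of cells of a type and a change in RNA per cell cannot be told apart.

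Comparing day 12 with day 5 asks which parts of the pathway differ as the cultures mature. Among the 43 measured genes 7 reached a 2-fold higher signal at day 12, none reached a 2-fold lower one and 36 lay between. The higher genes are 16.3% of those measured, and over all 10479 measured genes 3.56% reached 2-fold higher and 1.73% reached 2-fold lower. The 7 were the ligand genes Bmp8a (at least 2.67-fold), Tgfb1 (2.42-fold) and Bmp2 (2.14-fold), the binding protein genes Bmper (3.42-fold), Grem1 (2.18-fold) and Fstl3 (2.01-fold), and Bambi (3.51-fold). Bambi encodes a pseudoreceptor, and none of the 7 is a signalling receptor or a Smad. Bmp8a counted as measured only through day 12, its higher day. With Bmp8a and Bmp7 set aside, 6 of the remaining 41 passed 2-fold upwards. Of the 9810 genes of the array that cleared both floors, 3.1% did. The median log2 ratio of the 43 genes was 0.02 and that of all measured genes -0.05. Another 4 genes were between 1.5-fold and 2-fold higher, 3 were between 1.5-fold and 2-fold lower, and 29 differed by less than 1.5-fold. In all, 11 passed 1.5-fold upwards and 3 downwards, where 7.25% and 7.7% of all measured genes did. Bambi and Bmper also passed 3-fold upwards and no gene downwards, where 1.67% and 0.344% of all measured genes did.

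**Figure D1:**
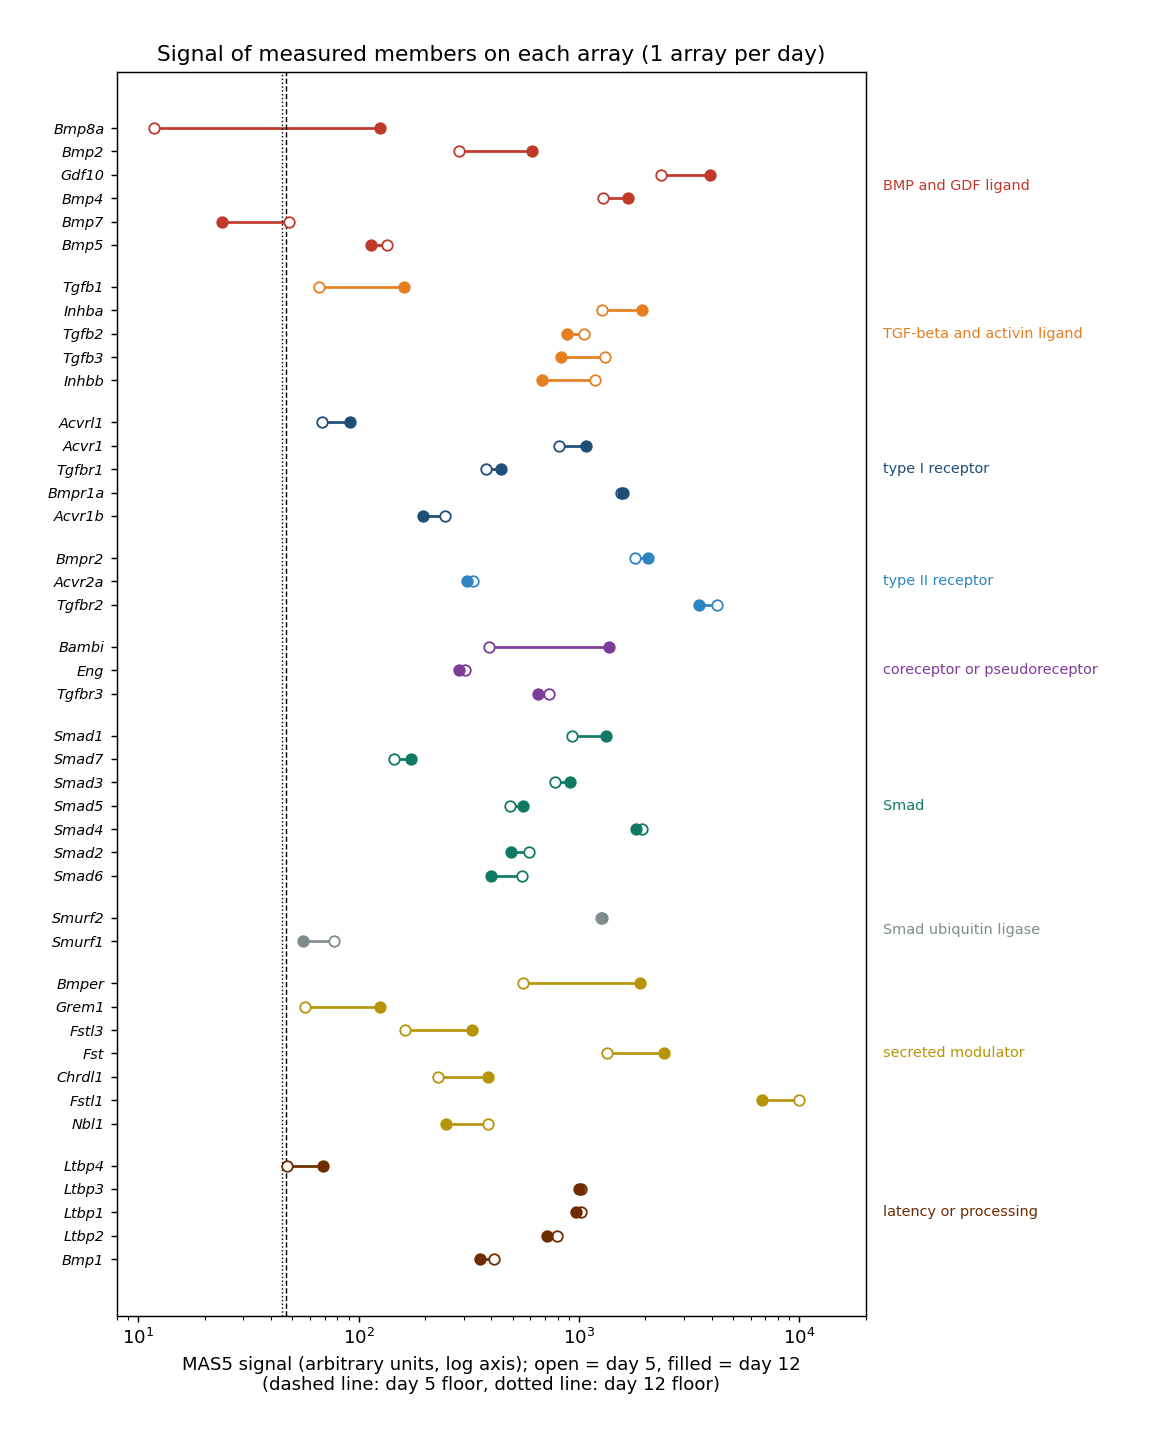
Signal of the 43 measured genes on the day 5 array (open circles) and the day 12 array (filled circles), on a log axis in arbitrary units, grouped and coloured by role, with each array's floor as a vertical line. The long lines belong to Bmp8a, Tgfb1, Bambi and Bmper, while the 2 points of most receptors and Smads lie close together.

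Each of the 7 genes was read by a single measured probe set, so none of these folds has a second reading on the array. Where genes of the group had 2 or more measured probe sets (21 genes), the log2 ratios of the brightest pair differed by a median of 0.23, against 0.17 over 4446 genes of the array. In 10 of the 21 the measured probe sets differed in sign. A log2 ratio of 0.23 or less in this group is therefore within the median disagreement of probe sets for 1 gene. As a median this is no cutoff, and larger disagreements occurred, such as 0.42 and -0.14 for Acvrl1. It does not measure variation between cultures.

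Promoter sequence was available from RefSeq for 5 of the 7 genes, in the assembly GRCm38.p6. The 250 bases upstream of the start site are printed 5′ to 3′ on the strand of the gene for 4 of them, Bmper as the gene with the highest ratio among those with a sequence, and Grem1, Fstl3 and Tgfb1 as those that hold a searched motif. Capitals mark matches, on either strand, to GGCGCC (a GC element of BMP-responsive genes), GTCTAGAC (the palindromic Smad element), CAGACA (a Smad box of TGF-beta-responsive genes) or ACGTG and GCGTG (cores of the hypoxia response element, of which ACGTG also lies within the E-box CACGTG).
Bmper (chr9:23222826-23223075, plus strand): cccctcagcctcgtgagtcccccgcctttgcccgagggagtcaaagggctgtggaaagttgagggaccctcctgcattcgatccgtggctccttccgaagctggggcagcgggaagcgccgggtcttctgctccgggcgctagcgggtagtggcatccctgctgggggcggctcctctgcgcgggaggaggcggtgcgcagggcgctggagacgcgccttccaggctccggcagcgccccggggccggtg
Grem1 (chr2:113758649-113758898, minus strand): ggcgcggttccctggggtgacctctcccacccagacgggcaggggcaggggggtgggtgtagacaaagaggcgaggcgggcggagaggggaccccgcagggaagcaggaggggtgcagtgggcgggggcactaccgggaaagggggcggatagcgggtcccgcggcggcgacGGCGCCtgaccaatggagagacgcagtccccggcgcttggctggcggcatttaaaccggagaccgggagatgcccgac
Fstl3 (chr10:79777024-79777273, plus strand): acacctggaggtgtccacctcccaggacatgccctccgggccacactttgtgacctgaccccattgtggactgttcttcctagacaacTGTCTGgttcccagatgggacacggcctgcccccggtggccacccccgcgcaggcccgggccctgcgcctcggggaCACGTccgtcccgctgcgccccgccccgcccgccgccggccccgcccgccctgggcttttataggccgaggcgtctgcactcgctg
Tgfb1 (chr7:25686752-25687001, plus strand): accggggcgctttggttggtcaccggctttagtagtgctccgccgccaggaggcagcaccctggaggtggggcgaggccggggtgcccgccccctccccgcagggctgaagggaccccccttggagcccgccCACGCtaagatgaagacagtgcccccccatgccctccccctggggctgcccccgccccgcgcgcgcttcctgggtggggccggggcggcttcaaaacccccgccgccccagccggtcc
The window of Bmper held none of the 5 motifs. That of Grem1 held GGCGCC at 78 bases upstream of the start site, Fstl3 held CAGACA at 162 and ACGTG at 86 bases upstream, both on the opposite strand, and Tgfb1 held GCGTG at 118 bases upstream on the opposite strand. The fifth window, of Bmp8a, held none. Over all 32851 windows of that length in the table, GGCGCC was present in 9.59%, GTCTAGAC in 0.167%, CAGACA in 17.1%, ACGTG in 16.6% and GCGTG in 28.2%. Among the 37 windows of 31 measured genes of the group, GGCGCC was present in 9, CAGACA in 6, ACGTG in 7 and GCGTG in 17, and GTCTAGAC in none. The 4 printed windows were between 71.2% and 75.2% G and C, and a match describes only the letters in the window.

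Of 15 BMP and GDF ligands on the array 6 were measured, of which 2 passed 2-fold upwards, none downwards and 4 neither, with a median log2 ratio of 0.56. Bmp2, a strong inducer of osteoblast formation, had signals of 284.0 and 609 on days 5 and 12. Its ratio exceeded that of 96.9% of measured genes. Bmp4, the closest relative of Bmp2, had signals of 1284 and 1670, a 1.30-fold difference that stayed under the threshold. Gdf10, also called BMP3b, had signals of 2358 and 3946 and was 1.67-fold higher.

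Bmp8a had signals of 11.7 at day 5 and 124.7 at day 12, so its fold is a bound set by the floor. Bmp8b, its close paralog, stayed under the floor with signals of 7.63 and 13.9 in its brighter probe set. Probes can cross-hybridise between genes so alike, so the assignment of the Bmp8a signal is uncertain, although its probe set is not among those whose identifier marks shared sequence. Bmp5 had signals of 133.7 and 114.0 (1.17-fold lower). Bmp7, a bone-inducing ligand used clinically, was close to the floor at day 5 (48.5) and under it at day 12 (24.0), and its second measured probe set gave 47.4 and 20.6. With the day 12 values raised to the floor, these pairs gave log2 ratios of -0.11 and -0.08, which are bounds, and with the 50th percentile floor the first gave -1.01. Bmp6, Bmp10, Bmp15, Gdf2, Gdf3, Gdf5, Gdf9 and Gdf11 lay under the floor on both days.

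Among TGF-beta and activin ligands the ratios ran in both directions within each subfamily, and Tgfb1 alone passed 2-fold. Of 7 on the array 5 were measured, 1 of them past 2-fold upwards and none downwards, with a median log2 ratio of -0.26. Tgfb1, the main TGF-beta of the bone matrix, had signals of 66.2 and 160.4. Tgfb3 went the other way, with signals of 1306 and 829 (1.57-fold lower). Tgfb2 had signals of 1055 and 883 in its brightest probe set, and its 4 measured probe sets gave log2 ratios from -0.42 to 0.05. The order of the 3 isoforms by ratio was thus Tgfb1, Tgfb2 and Tgfb3, with Tgfb2 not separated from no difference by its own probe sets. Myeloid cells also make TGF-beta 1, and 8 of 11 myeloid markers were at least 2-fold higher on the same array. Their part in the Tgfb1 value was not tested.

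Inhba and Inhbb encode the beta subunits of activin A and activin B. Inhba had signals of 1265 and 1927 (1.52-fold higher). Inhbb had signals of 1179 and 680 (1.73-fold lower), and its dimmer probe set gave a log2 ratio of -0.37. The log2 ratio of Inhbb was -0.79. Neither subunit passed 2-fold. Inhbc and Inhbe, subunits known mainly from liver, lay under the floor.

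The measured signalling receptors had a median absolute log2 ratio of 0.25, beside 0.23 over all measured genes. Of 11 type I and type II receptors 8 were measured, none passed 2-fold in either direction, and their log2 ratios ran from -0.33 to 0.42. Over all measured genes 3.56% passed 2-fold upwards and 1.73% downwards, so a count of none in 8 is near those shares. Among type I receptors Acvr1 (ALK2), which transmits BMP signals, had signals of 814 and 1076 (1.32-fold higher), while its dimmer measured probe set stood at 0.22 on the log2 scale. Bmpr1a (ALK3), the main BMP type I receptor of osteoblasts, had signals of 1554 and 1579, with log2 ratios from -0.19 to 0.13 over 4 probe sets. Tgfbr1 (ALK5), the TGF-beta type I receptor, had signals of 377 and 443. Acvr1b (ALK4), an activin receptor, had 246 and 195, a log2 ratio of -0.33. Acvrl1 (ALK1) had signals of 68.4 and 91.6, but its second probe set gave a log2 ratio of -0.14. Bmpr1b and Acvr1c were under the floor on both days.

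Among type II receptors Bmpr2 had signals of 1789 and 2063, and its second probe set gave -0.15 on the log2 scale where the first gave 0.21. Tgfbr2 had signals of 4215 and 3485 (1.21-fold lower), and -0.72 in its dim second probe set. Acvr2a had signals of 332 and 310 and Acvr2b lay under the floor. The receptors that lead to BMP Smads and those that lead to TGF-beta Smads were thus both present at both times without a difference past the threshold.

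Bambi stood apart from the other transmembrane proteins of the group. It encodes a pseudoreceptor that resembles a type I receptor but lacks the kinase domain, and so limits signalling. Its signal was 389 at day 5 and 1365 at day 12, and its ratio exceeded that of 98.7% of measured genes. The coreceptors Tgfbr3 (betaglycan), with signals of 730 and 654, and Eng (endoglin), with 302 and 286, had log2 ratios of -0.16 and -0.08. The second probe set of Eng gave -0.52.

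**Figure D2:**
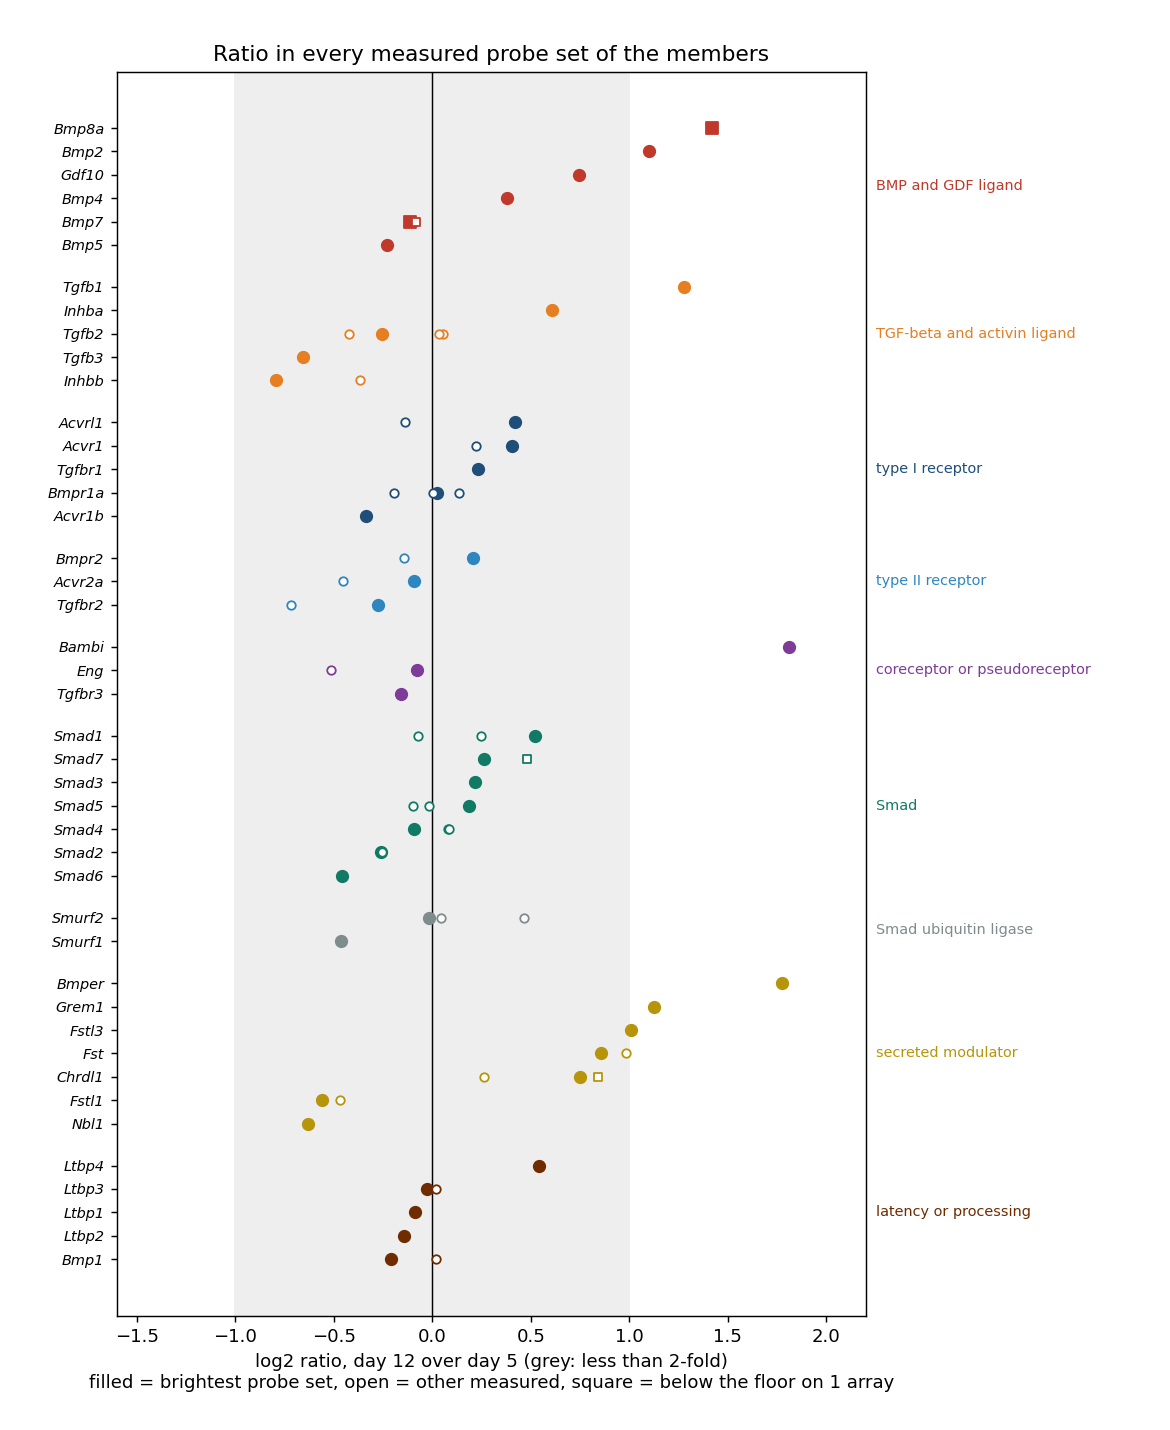
The log2 ratio of day 12 over day 5 in each measured probe set of the 43 genes, by role, where filled symbols are the brightest probe set of a gene, open symbols its other measured probe sets and squares those under the floor on 1 array. The 7 genes outside the grey band on the right have 1 symbol each, while symbols of Tgfb2, Bmpr1a, Smad4 and Smad5 fall on both sides of 0.

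Smads and their ubiquitin ligases showed no difference past 2-fold. With 3.56% of all measured genes past 2-fold upwards and 1.73% downwards, a count of none among so few genes is near those shares. Of 8 Smads 7 were measured, with a median log2 ratio of 0.19. Smad1, which carries BMP signals, had signals of 926 and 1329, the highest ratio of the 7 at 1.43-fold, but its 3 probe sets ran from -0.07 to 0.52 on the log2 scale. Smad5, of the same class, had signals of 486 and 554. Smad9, the remaining BMP Smad, lay under the floor with 4.41 and 20.7. Smad2 and Smad3, which carry TGF-beta and activin signals, had log2 ratios of -0.26 and 0.21, with signals of 589.5 and 492 for Smad2 and 780.3 and 905 for Smad3. Smad4, the common partner, had signals of 1935 and 1814.

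The inhibitory Smads are themselves induced by the pathway as feedback. Smad6, which acts mainly on BMP signalling, had signals of 549 and 400 (1.37-fold lower). Smad7, which acts on both branches, had 144 and 173 (1.20-fold higher), with 0.48 on the log2 scale in a probe set that started under the floor. Smurf1, a ubiquitin ligase of BMP Smads, had signals of 77.1 and 55.9, a log2 ratio of -0.46 close to the floor. Smurf2 had 1269 and 1256, with probe sets from -0.02 to 0.47.

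Secreted binding proteins of the ligands had the highest median ratio of any role. Of 11 on the array 7 were measured, 3 passed 2-fold upwards and none downwards, and the median log2 ratio was 0.86. Bmper, a relative of the fly protein Crossveinless-2 that binds BMPs outside the cell, had signals of 554 and 1897, and its ratio exceeded that of 98.7% of measured genes. Grem1 encodes gremlin, an antagonist of BMP2 and BMP4. It had signals of 57.0 and 124.3, of which the first is close to the floor.

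The follistatin proteins that bind activins had higher signals at day 12. Fstl3 had signals of 162.1 and 325.5, which put it just over the threshold. Fst, follistatin itself, lay just under it, with signals of 1344 and 2435 (1.81-fold) and a log2 ratio of 0.98 in its second probe set. Fstl1, which shares the follistatin domain but is better known as a secreted glycoprotein of mesenchymal cells, went the other way with signals of 9969 and 6763 (1.47-fold lower) and -0.47 on the log2 scale in its second probe set.

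Among further BMP antagonists, Chrdl1, a chordin-like protein, had signals of 229 and 385 (1.68-fold higher). Its 3 measured probe sets gave log2 ratios between 0.26 and 0.84, the highest of which is a bound. Nbl1 (DAN), which belongs to the same cysteine-knot family as gremlin, had signals of 386 and 250 (1.55-fold lower). The antagonists Nog (noggin), with signals of 6.58 and 15.3, and Chrd (chordin), with 39.6 and 20.8, lay under the floor on both days, as did Fstl4 and Fstl5. Of the BMP antagonists named here, Grem1 passed 2-fold, as did the BMP-binding protein Bmper.

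Genes of TGF-beta latency and of processing had a median log2 ratio of -0.09 and a median absolute log2 ratio of 0.14. None of the 5 passed 2-fold, which is near the shares of all measured genes (3.56% upwards and 1.73% downwards). Ltbp1, which anchors latent TGF-beta in the matrix, had signals of 1025 and 966. Ltbp3, required for TGF-beta storage in bone, had 1017 and 997, and Ltbp2, which does not bind latent TGF-beta, had 790 and 715. Ltbp4 had 47.2 and 68.8 (1.46-fold higher), beginning at the floor. Bmp1, which despite its name is a metalloprotease that trims procollagen and cleaves chordin, had signals of 409 and 353.

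**Figure D3:**
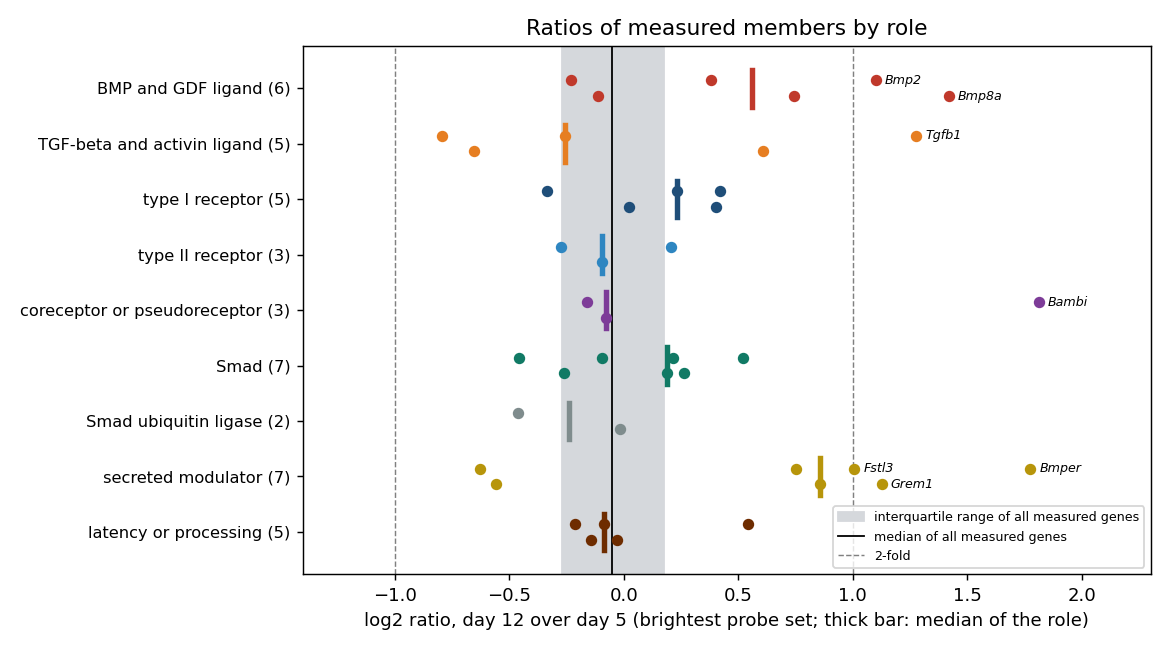
The log2 ratio of day 12 over day 5 of the 43 measured genes by role (number of genes in brackets), with a thick bar at each role's median, the median and interquartile range of all measured genes as a line and a grey band, and dashed lines at 2-fold. All 7 named points to the right of the dashed line belong to ligands, secreted modulators or the pseudoreceptor Bambi, and the points of receptors and Smads stay between -0.46 and 0.52.

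Set side by side, the 18 measured ligands and secreted modulators had a median absolute log2 ratio of 0.75, and 6 of them were at least 2-fold higher. These 6 include Bmp8a, which was measured only through day 12, its higher day, and whose ratio is a bound. The 18 also include Bmp7, measured only through day 5, whose ratio is a bound too. The 17 measured type I and type II receptors, Smads and ubiquitin ligases had a median absolute log2 ratio of 0.26, and none passed 2-fold. Neither set holds the pseudoreceptor Bambi (log2 ratio 1.81), the coreceptors or the latency and processing genes. Over all measured genes that median was 0.23, and 3.56% passed 2-fold upwards and 1.73% downwards. A count of none in 17 genes is near those shares, so by itself it does not set these 17 apart. The difference between the roles was not tested, since 1 array per day allows none.

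The rest of the pathway was read from a list of genes outside the families above. Of 106 such genes on the array 90 were measured, 5 passed 2-fold upwards, 6 downwards and 79 neither, with a median log2 ratio of -0.01. These are shares of 5.56% and 6.67%, beside 3.56% and 1.73% of all measured genes. The higher count includes Amhr2, which was measured only through day 12. The lower count includes Tmeff2, which was measured only through day 5. Each of these genes thus entered the list through its higher day, and its fold is a bound.

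Genes known as BMP targets differed in both directions. Of 12 measured, 2 passed 2-fold upwards and 4 downwards. The osteoblast transcription factor Sp7 (osterix) had signals of 330.1 and 1138 (3.45-fold higher) and the homeobox gene Dlx5 had 233.7 and 624 (2.67-fold higher). Id4 (567 and 239), Msx2 (1116 and 418), Msx1 (508 and 247) and Atoh8 (148 and 57.1) were 2.37-fold, 2.67-fold, 2.05-fold and 2.59-fold lower. Msx1 was just over the threshold, and its log2 ratio was -0.95 after loess, -0.95 with a pseudocount of 32 and -0.99 where probe sets of shared sequence were left out. The 3 probe sets of Id4 gave log2 ratios from -1.81 to -1.13. The other Id genes, which are the most direct readouts of BMP Smads, did not pass 2-fold. Id1 had signals of 1223 and 1032, Id2 had 1216 and 1718, and Id3 had 3502 and 3541. Dlx6 had a log2 ratio of 0.24.

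Of 13 measured TGF-beta targets 1, Skil, passed 2-fold upwards and none downwards. Over all measured genes 3.56% and 1.73% did, so a count of 1 in a list this short is near those shares. Skil encodes SnoN, a Smad corepressor that TGF-beta induces, and had signals of 398 and 900 (2.26-fold higher). The log2 ratios of the brightest targets were -0.15 for Ccn2, 0.16 for Postn, -0.12 for Snai2 and 0.07 for Cdkn2b.

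Among further antagonists none of 7 measured was 2-fold higher and 2 were lower. Sostdc1, which binds BMPs and the Wnt coreceptors, had signals of 358 and 137 (2.62-fold lower), with -1.43 on the log2 scale in its other probe set. Tmeff2, a membrane protein with follistatin domains, had 179.4 and 44.6, at least 4.0-fold lower. Twsg1, which binds BMPs together with chordin, had a log2 ratio of -0.31 but 0.37 in its other measured probe set. Lefty1 had -0.73, Tmeff1 0.03 and Crim1 -0.73, though the other measured probe set of Crim1 gave -0.10. Antagonists and binding proteins of the pathway were thus not uniformly higher at day 12. Bmper, Grem1 and Fstl3 were higher, while Sostdc1 and Tmeff2 were lower.

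Of 17 measured genes of ligand processing and activation 1 passed 2-fold upwards and none downwards. That count is near the shares of all measured genes, 3.56% upwards and 1.73% downwards. Pcsk6, a proprotein convertase (PACE4) that cleaves precursors of the superfamily, had signals of 152.1 and 810 (5.33-fold higher). Pcsk5, of the same enzyme family, had 575 and 1105, a log2 ratio of 0.94, and Furin had 307.5 and 288.6. The brightest others were level, with log2 ratios of 0.12 for Pcolce, 0.00 for Thbs1, 0.18 for Mmp14 and 0.09 for Mmp2. Of 5 further ligands and receptors measured, Amhr2, the type II receptor for anti-Müllerian hormone, had signals of 28.7 and 216.0 (at least 4.63-fold higher), but its measured probe sets gave log2 ratios from 0.07 to 2.21. In the same role Neo1 had 0.26, Cd109 0.26, Rgmb 0.02 and Rgma -0.73 (a bound) on the log2 scale.

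None of 29 intracellular regulators and none of 7 matrix proteins that bind these ligands passed 2-fold. Over all measured genes 3.56% did so upwards and 1.73% downwards, so counts of none in lists this short are near those shares. Among the regulators Fkbp1a, which holds type I receptors inactive, had a log2 ratio of 0.13, Tab2 0.15, Stub1 -0.28 and Ctdsp2 0.18, though the probe sets of Ctdsp2 ran from -0.59 to 0.18. Among the matrix proteins Fmod had 0.14, Dcn -0.10, Bgn 0.19 and Aspn 0.28.

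**Figure D4:**
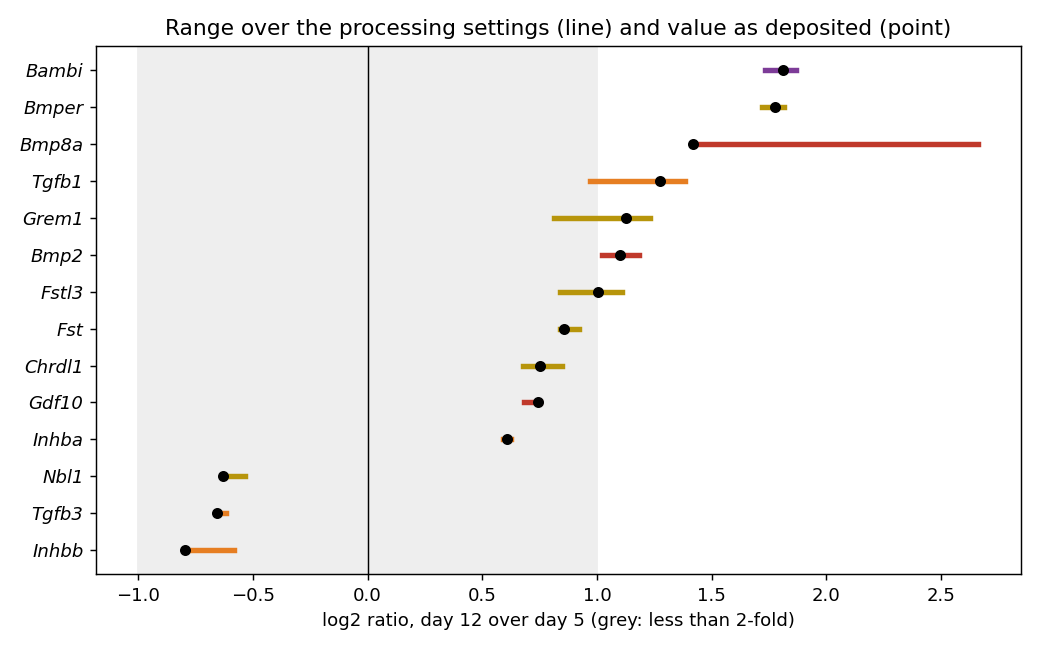
The 14 genes of the group that differed by at least 1.5-fold, with the log2 ratio of day 12 over day 5 as deposited (points) and its range over the processing settings in which the gene was measured (lines, coloured by role as in the plot of signals). Bambi, Bmper, Bmp2 and Bmp8a keep their whole range beyond 2-fold, while the ranges of Tgfb1, Grem1 and Fstl3 cross it.

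The dependence on processing differed among the 7 genes. Bambi, Bmper and Bmp2 were past 2-fold under all 8 alternatives of normalisation, floor and probe set, with lowest log2 ratios of 1.73, 1.72 and 1.02. Tgfb1 (0.97), Grem1 (0.81) and Fstl3 (0.88) were under 2-fold with a pseudocount of 32 in place of the floor. With the floor at the 75th percentile Bmp8a, Tgfb1 and Grem1 were no longer measured and Fstl3 had a log2 ratio of 0.84, which left 3 of the 7. Grem1 was also not measured where probe sets of shared sequence were left out, which left 6 of the 7. Under the 50th percentile floor Bmp7 had a log2 ratio of -1.01 and was the only gene of the group counted as at least 2-fold lower.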

How the data were processed

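The authors deposited 1 table of MAS5 signal intensity for 45101 probe sets, and GCOS 1.4 and MAS5 are named in the submitters' processing notes. The trimmed mean was 200.0 on both arrays. A genome build is not given in the sources used here. Probe sets with 1 symbol in the platform annotation (34945 of those that are no controls) were named, with symbols updated by Entrez number. Each gene took its brightest probe set by mean log2 signal. No further normalisation was applied. A gene was called at a ratio of at least 2-fold, with no test, since each day has 1 array, and the number of arrays limits the precision. Every measured gene of the families is named, and of the further pathway list those past 2-fold and up to 4 others per role by signal (Pcsk5 and Furin were added after their values were seen). Members and lists were chosen with earlier results of these data known. Code was tested on simulated data. Alternatives covered normalisation, floor, pseudocount, probe set and threshold. Probe sets of shared sequence means those with identifiers ending in _a_at, _s_at or _x_at, whether the sequence is shared among transcripts of 1 gene or among genes. Software versions were numpy 2.4.6, pandas 2.3.3 and statsmodels 0.14.6 under Python 3.11.15.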

Additional observations from a re-analysis of the deposited data

How the results depend on the processing

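Median centring, quantile normalisation and loess each left 7 of the 43 genes at least 2-fold higher and none at least 2-fold lower. The count of higher genes was 3 with the 75th percentile floor (34 genes measured) and 4 with a pseudocount of 32, and it was 11 at a threshold of 1.5-fold and 2 at 3-fold. Without probe sets of shared sequence it was 6 (40 genes measured). The count of lower genes was 1 with the 50th percentile floor and 3 at 1.5-fold. For the further pathway list the higher count was 9 with the 50th percentile floor and 9 at 1.5-fold, 3 without probe sets of shared sequence and 3 at 3-fold, and the lower count was 12 at 1.5-fold and 1 at 3-fold (as deposited 6, with loess 5, with the pseudocount 5, leaving out shared-sequence probe sets 5, and with the 75th percentile floor 4). Other than for fewer genes measured or another threshold, the cause was not tested. With Bmp2k counted in, an alternative chosen after seeing the data, 8 of 44 genes were higher (its own log2 ratio was 1.15, but 0.00 in the probe set with its lowest ratio). The median log2 ratio of the group stayed between -0.02 and 0.11 over all alternatives. No gene past 2-fold changed sign where it was measured. No paired analysis was possible because each day has 1 array. Of the 62 genes, 19 lay under the floor, where this array shows no ratio.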
